A study of Mus musculus with 11 samples.

Results

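The glycosyltransferases described here are the enzymes that start, branch, lengthen and cap the sugar chains of mucins and other glycoproteins and glycolipids, read as transcripts in the colon of germ-free and humanized mice. A gene was a member if its symbol began with Fut, St3gal, St6gal, St8sia, B3gnt, B3gal, B4gal, Galnt, Gcnt or C1galt and it had at least 10 reads in at least 5 of the 11 mice. Of the 43346 genes in the count table, 84 had such a symbol and 76 met the read threshold. They were read in 4 classes: 7 fucosyltransferases, 18 sialyltransferases, 24 genes of initiation, core formation and branching, and 27 genes of chain extension, the last for members that are neither fucosyl, sialyl nor core enzymes. The classes hold a few members that make other glycans, such as B4galt7 and B3galt6 of the proteoglycan linker, 1 chaperone (C1galt1c1) and 1 antisense RNA (Galnt6os).

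All 11 mice were male Swiss Webster mice raised germ-free, kept singly in isolators and studied at 8 to 10 weeks of age. The 5 germ-free mice received no microbiota. The 6 humanized mice received 300 µL of a suspension of stool from 1 human donor by gavage at 4 to 5 weeks of age and were given 4 to 5 weeks for it to adapt, so these data hold the response to the microbiota of 1 donor in 1 sex. Colon tissue was read by RNA sequencing of polyadenylated transcripts.

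Mucins of the colon are made by goblet cells, and their protein backbone carries dense O-linked sugar chains. A Galnt enzyme starts each chain with N-acetylgalactosamine (GalNAc), C1galt1, B3gnt6 and the Gcnt enzymes build and branch its core, B3gnt, B3galt and B4galt enzymes lengthen it, and fucose, sialic acid or GalNAc caps its end. The same capping enzymes also act on the N-linked chains of glycoproteins and on glycolipids, and the caps are binding sites and food for gut bacteria.

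Depth was 49097005 to 64148538 counts in germ-free and 39125290 to 54219854 counts in humanized mice, and the members took 0.488 to 0.567% of them in germ-free and 0.528 to 0.615% in humanized mice. The tissue was colon epithelium with deeper layers: the 11 epithelial markers summed to 9157 to 11886 counts scaled to library size (CPM) in germ-free and 10228 to 14156 CPM in humanized mice. The 10 smooth muscle markers summed to 834 to 2381 CPM in germ-free and 95.9 to 856 CPM in humanized mice, and all 10 were lower in humanized mice. Among the humanized mice, mouse 5 was lowest in these markers and mouse 6, the only one to reach into the germ-free range, highest. Among the germ-free mice, mouse 4 was highest at 2381 CPM, with the other 4 at 834 to 1360.1 CPM. Humanized mouse 6 stood apart from the other 10 mice in 3 single genes, picked out after their values were seen: Fabp6, an ileal bile acid binding protein, was at 132 RPKM there and at 4.88 to 35.3 RPKM elsewhere, the goblet gene Spink4 was at 1300.1 RPKM against 161 to 431, and the chloride exchanger Slc26a3 was at 70.5 RPKM against 8.73 to 19.9. Summed over the marker lists that hold Fabp6 and Spink4 it did not stand apart from all other mice: its 6 small intestine and liver markers summed to 148 CPM, beside 76.5 to 158 CPM in germ-free and 11.98 to 46.8 CPM in the other humanized mice, and its goblet markers to 13962 CPM, inside the range of the other humanized mice. Its colonocyte markers, which include Slc26a3, summed to 28728 CPM, the highest of all mice and next to 26104 CPM in humanized mouse 5. The labels and methods do not say which stretch of the colon was taken for sequencing. RPKM, reads per kilobase scaled to library size with TMM normalization, was used to compare levels between genes.

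Between humanized and germ-free mice 24 of the 75 members that could be tested, or 32.0%, differed at a false discovery rate (FDR) below 0.01 in edgeR's exact test, against 19.3% of all 19863 genes tested. Of these, 14 were upregulated in humanized mice, against 9.20% of all genes, and 10 were downregulated, against 10.1%. Without germ-free mouse 4, the mouse highest in the smooth muscle markers, the downregulated members numbered 6. Over all genes the lower calls fell from 1999 to 1486 without that mouse. Without germ-free mouse 3 the members numbered 7 and the genes 1602, and without germ-free mouse 1 they numbered 8 and 1662. The part of muscle in these counts was not tested. The values of 12 upregulated and 9 lower members, the latter including the uncalled Fut11 and Galnt18, did not overlap between the groups, beside 8.67% and 9.73% of all genes. The median log2 fold change (LFC, humanized over germ-free) of the members was -0.03, beside 0.01 for all genes tested. As over all genes, the upregulated members were mostly abundant and the downregulated ones scarce: the mean level over all mice had a median of 22.7 RPKM for the upregulated members and 0.62 RPKM for the downregulated ones, beside 21.1 and 1.21 RPKM for all genes tested. Among the 46 members at 4 RPKM or more, 11 were upregulated and 1 was downregulated, beside 15.1% and 5.26% of all genes of that level. Among the 29 members below 4 RPKM, 3 were upregulated and 9 downregulated, beside 3.12% and 15.0% of all genes of that level. The 9 include Galnt13 and St8sia2, which had at least 10 reads in every germ-free mouse but in 1 humanized mouse only, so that they entered the list through the group where they were high.

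**Figure D1:**
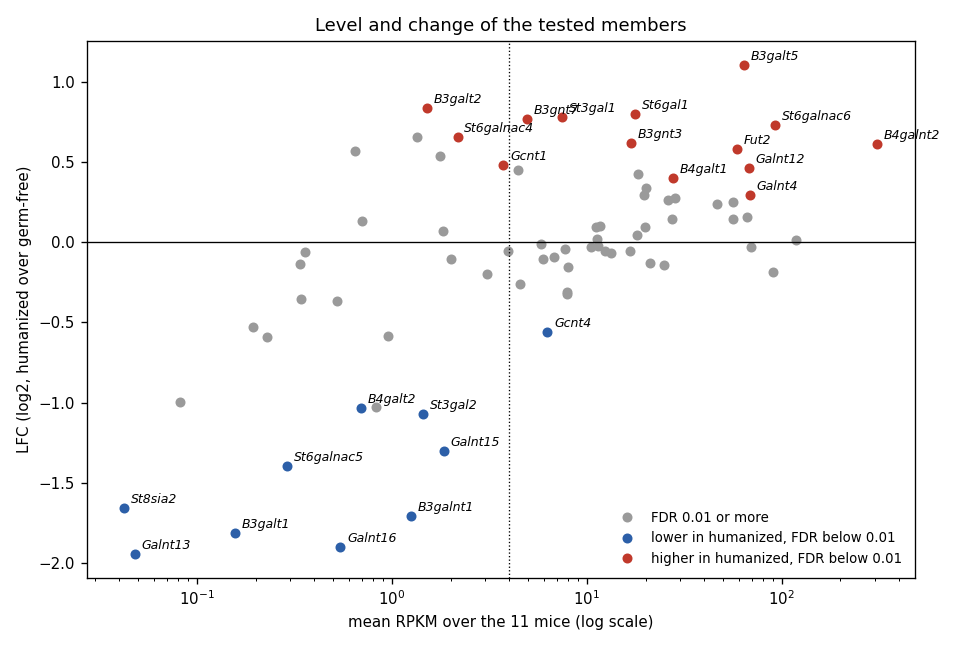
Mean level of each of the 75 tested members over the 11 mice (RPKM, log scale) against its LFC (humanized over germ-free), with the dotted line at 4 RPKM. The upregulated members (red) lie mostly to the right of the line and the downregulated members (blue), apart from Gcnt4, to the left of it.

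By class, 1 fucosyltransferase rose and 0 fell in edgeR's exact test (2 were lower at an unadjusted p under 0.05, 0 by the quasi-likelihood test and 1 by DESeq2). Of 17 sialyltransferases tested, 4 rose and 3 fell. Of the 24 initiation, core and branching genes 3 rose and 4 fell, and of the 27 extension genes 6 rose and 3 fell, beside 9.20% and 10.1% of all genes. Leaving out 1 mouse moved some of these small counts: the sialyltransferases that fell numbered 1 without germ-free mouse 1 or 3 and 0 without germ-free mouse 4, and the core genes that rose numbered 1 without germ-free mouse 1 and 5 without humanized mouse 6. The median LFC was -0.14 for fucosyl, 0.04 for sialyl, 0.06 for core and -0.04 for extension members.

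The split between directions depended on the scaling, for the members as for all genes. With TMM, 1827 of the 19863 genes tested were higher and 1999 lower. With total counts in place of TMM the count was 7 members higher and 18 lower, beside 773 and 3609 of all genes. The median LFC of all genes was then -0.18. Scaled to the 11 epithelial markers the count was 5 members higher and 16 lower, beside 582 and 3401 of all genes, whose median LFC was -0.23. The 5 members that were upregulated under each of the 5 normalizations tried were B3galt5, St6gal1, St3gal1, St6galnac6 and B4galnt2. All 10 downregulated members were so under each of them. RLE left the median LFC of all genes at 0.01, and upper-quartile, total-count and epithelial scaling moved it to -0.03, -0.18 and -0.23. Lower members could therefore hardly lose their call, so their count is no measure of robustness.

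**Figure D2:**
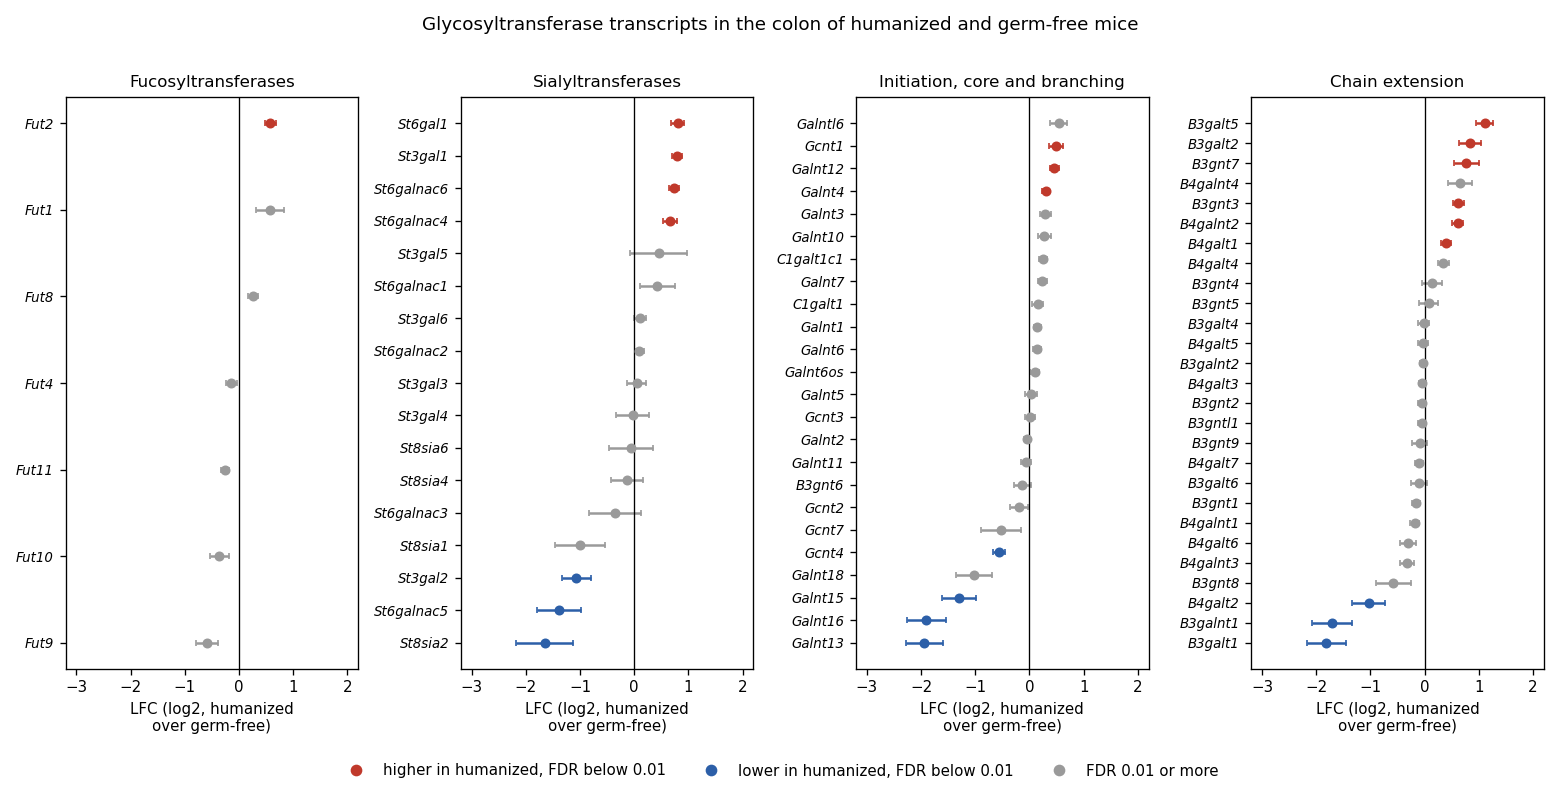
LFC (humanized over germ-free, log2) of the 75 tested members by class, with bars of 1 standard error from the quasi-likelihood fit and colours for the exact test. Upregulated members (red) sit between 0.30 and 1.11 and downregulated members (blue) between -1.94 and -0.56, and each class except the fucosyltransferases holds both.

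The promoters of 4 of these 5 members are shown because their call as upregulated did not depend on the scaling. St3gal1 had no promoter entry. RefSeq promoters, 250 bases before to 50 after a start in GRCm38.p6, were matched by symbol for 54 of the 76 members, and for each gene the start nearest to that of the count table was taken. They are B3galt5 at chr16:96235551-96235850 on the plus strand, B4galnt2 at chr11:95914822-95915121 on the minus strand, St6gal1 at chr16:23224490-23224789 on the plus strand and St6galnac6 at chr2:32599459-32599758 on the plus strand. Each is printed 5′ to 3′ with capitals marking a match to 1 of 3 motifs searched on both strands: CDX (TTTATNG), STAT (TTCNNNGAA) and HNF4 (CAAAGTCCA), no pair of which overlapped here.
B3galt5: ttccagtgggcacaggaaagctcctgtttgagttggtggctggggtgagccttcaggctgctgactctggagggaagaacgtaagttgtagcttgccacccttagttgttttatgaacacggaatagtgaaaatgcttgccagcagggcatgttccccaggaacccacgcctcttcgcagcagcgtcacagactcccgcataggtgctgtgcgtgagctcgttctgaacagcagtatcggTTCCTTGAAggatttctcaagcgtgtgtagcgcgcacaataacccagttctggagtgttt
B4galnt2: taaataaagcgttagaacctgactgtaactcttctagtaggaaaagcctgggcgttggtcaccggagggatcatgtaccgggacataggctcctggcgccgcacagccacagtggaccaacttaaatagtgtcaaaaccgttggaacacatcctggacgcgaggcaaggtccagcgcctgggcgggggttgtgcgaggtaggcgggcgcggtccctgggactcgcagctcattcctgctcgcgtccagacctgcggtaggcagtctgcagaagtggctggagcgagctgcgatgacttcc
St6gal1: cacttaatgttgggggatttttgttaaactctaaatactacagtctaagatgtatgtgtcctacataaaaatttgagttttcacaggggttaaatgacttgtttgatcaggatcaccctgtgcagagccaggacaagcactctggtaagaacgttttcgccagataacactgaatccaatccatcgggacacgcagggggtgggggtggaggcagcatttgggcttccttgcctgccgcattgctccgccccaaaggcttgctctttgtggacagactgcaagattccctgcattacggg
St6galnac6: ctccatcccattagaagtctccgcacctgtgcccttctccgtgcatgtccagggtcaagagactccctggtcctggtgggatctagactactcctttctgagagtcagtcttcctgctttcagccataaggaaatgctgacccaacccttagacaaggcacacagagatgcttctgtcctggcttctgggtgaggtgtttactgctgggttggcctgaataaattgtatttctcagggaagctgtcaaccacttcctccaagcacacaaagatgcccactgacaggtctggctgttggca

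The only match in these 4 windows was a STAT pattern at bases 241 to 249 of the B3galt5 promoter. Such a pattern was in 8.30% of the 32851 promoters of the reference, CDX in 10.9% and HNF4 in 0.475%. Of the 10 upregulated members with a promoter entry, 2 held a STAT, 1 an HNF4 and 0 a CDX pattern in any listed promoter. The same counts were 1, 0 and 0 of 8 downregulated members and 2, 0 and 3 of 36 uncalled ones. They are over any promoter of a gene while the shares are per promoter, so the counts and shares are not compared. B3galt5 and St6gal1 each have 3 starts in RefSeq, and which of them the colon used was not read from gene counts. The St6galnac6 window begins inside the St6galnac4 gene, which runs to chr2:32599698 on the same strand.

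Among the fucosyltransferases, Fut2 (chr7:45648595-45666308, mm10), which places fucose on terminal galactose and makes the H antigen of secretions, was the most abundant and the only member called. It was at 45.1, 51.9, 45.5, 39.1 and 49.5 RPKM in the germ-free mice and at 60.0, 69.1 and 80.8 RPKM (lowest, median and highest) in the humanized mice. Every humanized mouse was above every germ-free mouse. The rise was 1.49-fold (LFC 0.58, standard error (SE) 0.10, FDR 9.24e-07 in edgeR's exact test), and under epithelial scaling its LFC was 0.35 at an FDR of 0.0210.

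Fut1, the related H enzyme of other tissues, was at 0.65 RPKM on average, lay at 0.406 to 0.603 RPKM in germ-free and 0.383 to 1.17 RPKM in humanized mice, and was not called (LFC 0.57, FDR 0.128, edgeR) except without humanized mice 5 and 6 together (LFC 0.85, FDR 9.18e-04). Fut4, which fucosylates inner N-acetylglucosamine in Lewis x type structures, was at 23.9 to 29.3 RPKM in germ-free and 19.0 to 26.9 RPKM in humanized mice (LFC -0.14, FDR 0.383), and Fut8, the enzyme of the core fucose of N-glycans, at 20.8 to 26.5 and 25.1 to 34.2 RPKM (LFC 0.26, FDR 0.0369). Fut11 did not overlap between groups (4.90 to 5.14 RPKM in germ-free, 3.79 to 4.83 RPKM in humanized mice) but missed the threshold (LFC -0.26, FDR 0.0386, edgeR). It was called lower with DESeq2 (FDR 0.00323), total counts (LFC -0.44, FDR 0.00201) and epithelial scaling (LFC -0.50, FDR 0.00371). As a description, Fut2 made up 45.1% ± 1.64 (SD, n = 5) of the summed RPKM of the class in germ-free and 54.5% ± 1.70 (SD, n = 6) in humanized mice, while Fut4 made up 25.7% ± 1.74 and 18.8% ± 1.11.

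The sialyltransferases that rose cap different chains. St6galnac6 (chr2:32599709-32620806) adds sialic acid to N-acetylhexosamine of glycolipids. In germ-free mice St3gal4 had the higher mean (70.4 against 68.0 RPKM), but St6galnac6 had the highest mean of the class over all mice. Its levels were 62.5, 74.3, 69.9, 57.5 and 75.6 RPKM in germ-free mice and 96.6, 111 and 127 RPKM (lowest, median, highest) in humanized mice. The groups did not overlap and the rise was 1.66-fold (LFC 0.73, SE 0.10, FDR 1.91e-10, edgeR's exact test).

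St6gal1 (chr16:23224740-23360350), which sialylates the galactose ends of N-glycans, was at 12.3, 13.3, 13.2, 11.9 and 12.5 RPKM in germ-free mice and at 16.4, 22.0 and 26.3 RPKM in humanized mice. The germ-free mice lay close together and all 6 humanized mice were above them, with a rise of 1.74-fold (LFC 0.80, SE 0.11, FDR 2.46e-09, edgeR). BC106179 on the opposite strand covers 4.07% of its exon bases. St3gal1 (chr15:67102875-67113992), which caps the galactose of the simplest O-glycan core, had levels of 4.61, 4.95, 5.33, 5.75 and 6.19 RPKM in germ-free and 7.69, 9.11 and 10.4 RPKM in humanized mice. This was again a separation of all mice by group, with a rise of 1.72-fold (LFC 0.78, SE 0.09, FDR 1.04e-11, edgeR), the lowest FDR of all members.

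St6galnac4, which adds a second sialic acid to sialylated O-glycan cores, was far less abundant at 1.43 to 1.80 RPKM in germ-free and 1.99 to 3.22 RPKM in humanized mice (LFC 0.66, FDR 2.33e-04, edgeR), and was not called under total counts (LFC 0.48, FDR 0.0170) or epithelial scaling (LFC 0.45, FDR 0.0754). Its gene (chr2:32587095-32599698) ends directly before the start of St6galnac6 on the same strand. The library kit and the counts do not separate reads that might run from one into the other.

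The sialyltransferases that fell were scarce, and none kept its call with the quasi-likelihood test (FDR 0.0113 for St3gal2, 0.0234 for St6galnac5 and 0.0349 for St8sia2). St3gal2, which acts on O-glycan cores and gangliosides, was at 1.65, 1.66, 2.06, 2.67 and 2.07 RPKM in germ-free and at 0.359, 0.976 and 1.44 RPKM in humanized mice, with no overlap (LFC -1.07, SE 0.27, FDR 0.00131, edgeR, and 0.0110 without germ-free mouse 4). St6galnac5, a ganglioside enzyme best known in brain, was at 0.322 to 0.519 RPKM in germ-free and 0.0281 to 0.313 RPKM in humanized mice (LFC -1.39, FDR 0.00531), and its FDR rose to between 0.0108 and 0.0208 without germ-free mouse 1, 2, 3 or 4 or humanized mouse 1, 4 or 6. St8sia2, a polysialyltransferase of neural cells, had 11 to 38 reads in germ-free and 0 to 12 reads in humanized mice (LFC -1.66, FDR 0.00488, edgeR), and its call was lost under DESeq2 (FDR 0.0231), without a filter on low counts (FDR 0.0128) and without germ-free mouse 1, 3, 4 or 5 or humanized mouse 3 (FDR 0.0123 to 0.0309).

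Other sialyltransferases showed single mice rather than groups. St3gal4, an N-glycan and selectin ligand enzyme, was at 35.3, 72.3, 105, 67.9 and 71.3 RPKM in germ-free mice and at 44.5, 57.6 and 130 RPKM in humanized mice, the highest being humanized mouse 6 (LFC -0.03, FDR 0.959, edgeR; -0.32 without that mouse, FDR 0.372). A transcript of the opposite strand, 4930581F22Rik, covers 14.1% of its exon bases. St3gal5, the synthase of the simplest sialylated ganglioside, was picked out after its values were seen: humanized mouse 6 was at 17.4 RPKM and the other 5 at 1.86 to 3.64 RPKM, against 3.25 to 4.53 RPKM in germ-free mice. Its LFC was 0.45 with all mice (FDR 0.589) and -0.51 without humanized mouse 6 (FDR 0.0572, edgeR), the mouse that stood apart in Fabp6, Spink4 and Slc26a3, whose part in this value was not tested. St6galnac1, which makes the sialyl-Tn structure of mucins, was at 30.2 RPKM in germ-free mouse 1 and at 9.58 to 13.2 RPKM in the other 4, against 9.04 to 28.8 RPKM in humanized mice (LFC 0.43, FDR 0.357, edgeR; 0.82 without that mouse, FDR 0.0107).

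Of the enzymes that start the chain, the abundant Galnt12 and Galnt4 rose. Galnt12 (chr4:47091909-47123070), a GalNAc-transferase highly expressed in colon, was at 55.6, 60.0, 56.4, 49.9 and 58.3 RPKM in germ-free and at 65.9, 76.9 and 92.1 RPKM in humanized mice. The groups did not overlap and the rise was 1.38-fold (LFC 0.46, SE 0.08, FDR 8.65e-06, edgeR). Galnt4 (chr10:99108159-99113247), another member of the family, was at 57.0, 63.0, 61.6, 60.8 and 63.2 RPKM in germ-free and at 66.2, 73.4 and 83.5 RPKM in humanized mice, also without overlap and with a rise of 1.23-fold (LFC 0.30, SE 0.07, FDR 0.00203). Without germ-free mouse 1 the FDR of Galnt4 was 0.0137, and 8.25% of its exon bases are shared with Poc1b on the same strand. Neither rise was called with total counts (LFC 0.28, FDR 0.0138, and 0.11, FDR 0.274) or epithelial scaling (LFC 0.23, FDR 0.116, and 0.06, FDR 0.657).

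The enzymes that form the core and the most abundant branching enzyme did not pass the test. C1galt1, which adds galactose to form the commonest core, was at 54.8 to 69.4 RPKM in germ-free and 56.6 to 87.5 RPKM in humanized mice (LFC 0.16, FDR 0.312, edgeR), a value that was -0.03 with total counts and -0.07 with epithelial scaling. Its chaperone C1galt1c1 was at 47.5 to 58.2 and 51.7 to 68.8 RPKM (LFC 0.25, FDR 0.0218), with an FDR of 0.00722 without germ-free mouse 2 and 0.00305 without humanized mouse 3. B3gnt6, which builds the alternative core of colon mucins, was at 14.3 to 29.3 and 15.8 to 25.4 RPKM (LFC -0.13, FDR 0.633). Gcnt3, the branching enzyme of mucin-secreting cells and the most abundant gene of the class, was at 111 to 126 RPKM in germ-free and 99.2 to 142 RPKM in humanized mice (LFC 0.02, FDR 0.929, edgeR), and the sign of so small a value changed with the normalization.

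Of the 4 other branching enzymes tested 1 rose, Gcnt1, and 1 fell, Gcnt4. Gcnt1, the form known from leukocytes, was at 2.55 to 3.80 RPKM in germ-free and 3.54 to 5.43 RPKM in humanized mice, with overlap (LFC 0.49, FDR 0.00461, edgeR). It lost its call with total counts (LFC 0.30, FDR 0.113), epithelial scaling (LFC 0.27, FDR 0.218), upper-quartile normalization (FDR 0.0120) and the quasi-likelihood test (FDR 0.0149), and without germ-free mouse 1, 2, 3 or 4 or humanized mouse 1 or 2 (FDR 0.0130 to 0.0273). Gcnt4 (chr13:96924689-96950912) was the 1 downregulated member above 4 RPKM, at 6.29, 7.55, 7.58, 8.65 and 8.00 RPKM in germ-free and 4.55, 4.93 and 6.61 RPKM in humanized mice. Only humanized mouse 5 reached into the germ-free range (LFC -0.56, SE 0.11, FDR 3.99e-05, edgeR), and an antisense gene, Gm48597, covers 10.5% of its exon bases.

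The remaining downregulated genes of this class were GalNAc-transferases of low level. Galnt16 was at 1.25, 0.790, 0.737, 1.05 and 0.715 RPKM in germ-free and 0.0859, 0.223 and 0.5005 RPKM in humanized mice (LFC -1.90, SE 0.37, FDR 1.25e-05, edgeR), and Gm26777 on the opposite strand covers 6.05% of its exon bases. Galnt15 was at 3.73, 2.21, 2.66, 2.88 and 2.21 RPKM in germ-free and 0.359, 1.31 and 1.62 RPKM in humanized mice (LFC -1.30, SE 0.31, FDR 4.62e-04). Both were without overlap between the groups. Galnt13, a neural form, had 20 to 61 reads in germ-free and 4 to 14 reads in humanized mice (LFC -1.94, FDR 3.79e-06), and Galnt18 did not overlap between groups but was not called (LFC -1.03, FDR 0.0148, edgeR). Galnt18 was called lower with DESeq2 (FDR 0.00944), total counts (FDR 0.00646), epithelial scaling (FDR 0.00611) and a filter of 10 counts in every mouse (FDR 0.00977), and without humanized mouse 5 (LFC -0.82, FDR 0.00287) or without humanized mice 5 and 6 (FDR 0.00422).

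Chain extension held the largest rise. B3galt5 (chr16:96235801-96319859) adds galactose to N-acetylglucosamine ends. It was at 42.8, 48.4, 35.1, 29.0 and 41.5 RPKM in germ-free and at 64.7, 82.0 and 114 RPKM in humanized mice. All humanized mice were above all germ-free mice, with a rise of 2.15-fold (LFC 1.11, SE 0.16, FDR 1.48e-09, edgeR's exact test), and it was the only upregulated member past an LFC of 1.

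B4galnt2 (chr11:95865943-95914891), which caps chains with GalNAc to make the Sda antigen of the colon, was the most abundant of all members, at the 99.4th percentile of tested genes. Its levels were 224, 273, 237, 228 and 232 RPKM in germ-free and 285, 357 and 434 RPKM in humanized mice. The groups did not overlap, the rise was 1.53-fold (LFC 0.61, SE 0.10, FDR 6.83e-07, edgeR), and its lowest humanized mouse lay close above its highest germ-free mouse. An antisense transcript, Gm11534, covers 15.3% of its exon bases, and reads of the pair cannot be told apart by a kit that does not mark strand.

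B3gnt3, which lengthens the simplest O-glycan core, was at 11.8, 15.2, 13.6, 11.1 and 13.5 RPKM in germ-free and 16.9, 19.9 and 24.6 RPKM in humanized mice (LFC 0.62, SE 0.10, FDR 1.29e-06, edgeR). B4galt1, the main galactosyltransferase of N-glycans, was at 22.6, 24.5, 22.1, 24.2 and 24.3 RPKM in germ-free and 25.8, 29.8 and 39.5 RPKM in humanized mice (LFC 0.40, SE 0.09, FDR 8.73e-04). Neither overlapped between the groups. B4galt1 lost its call with total counts (LFC 0.21, FDR 0.0804) and epithelial scaling (LFC 0.15, FDR 0.211), and B3gnt3 with epithelial scaling (LFC 0.39, FDR 0.0144, edgeR). Of the same family, B4galt4 was at 16.5 to 20.2 RPKM in germ-free and 17.7 to 26.2 RPKM in humanized mice, just outside the threshold (LFC 0.34, FDR 0.0101, edgeR). It was named after its values were seen and was called with DESeq2 (FDR 0.00883), RLE normalization (FDR 0.00993), a filter of 10 reads in 5 mice (FDR 0.00997) and the replicate block (FDR 0.00912), without germ-free mouse 2 or humanized mouse 4 or 6 (FDR 6.89e-04 to 0.00512), and without humanized mice 5 and 6 together (FDR 2.63e-04).

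The other extension enzymes that rose were scarce. B3galt2 was at 0.893 to 1.19 RPKM in germ-free and 1.41 to 2.95 RPKM in humanized mice (LFC 0.84, FDR 0.00149, edgeR), with humanized mice 2 and 4 highest, and B3gnt7, an enzyme of keratan sulfate and poly-N-acetyllactosamine, was at 2.51 to 4.88 and 3.37 to 7.98 RPKM with overlap (LFC 0.77, FDR 0.00800). Exons of other genes cover 7.31% of B3galt2 (Cdc73, opposite strand) and 12.6% of B3gnt7 (Gm28626, antisense). B3gnt7 lost its call without germ-free mouse 1, 3 or 4 or humanized mouse 1, 2, 3, 4 or 6 (FDR 0.0114 to 0.0390), and B3galt2 without germ-free mouse 1 (FDR 0.0104). Both lost it with the quasi-likelihood test (FDR 0.0113 for B3galt2 and 0.0271 for B3gnt7), total counts (0.0207 and 0.0543) and epithelial scaling (0.0467 and 0.0685, all edgeR), and B3gnt7 also with upper-quartile normalization (FDR 0.0136) and without a filter on low counts (FDR 0.0113).

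**Figure D3:**
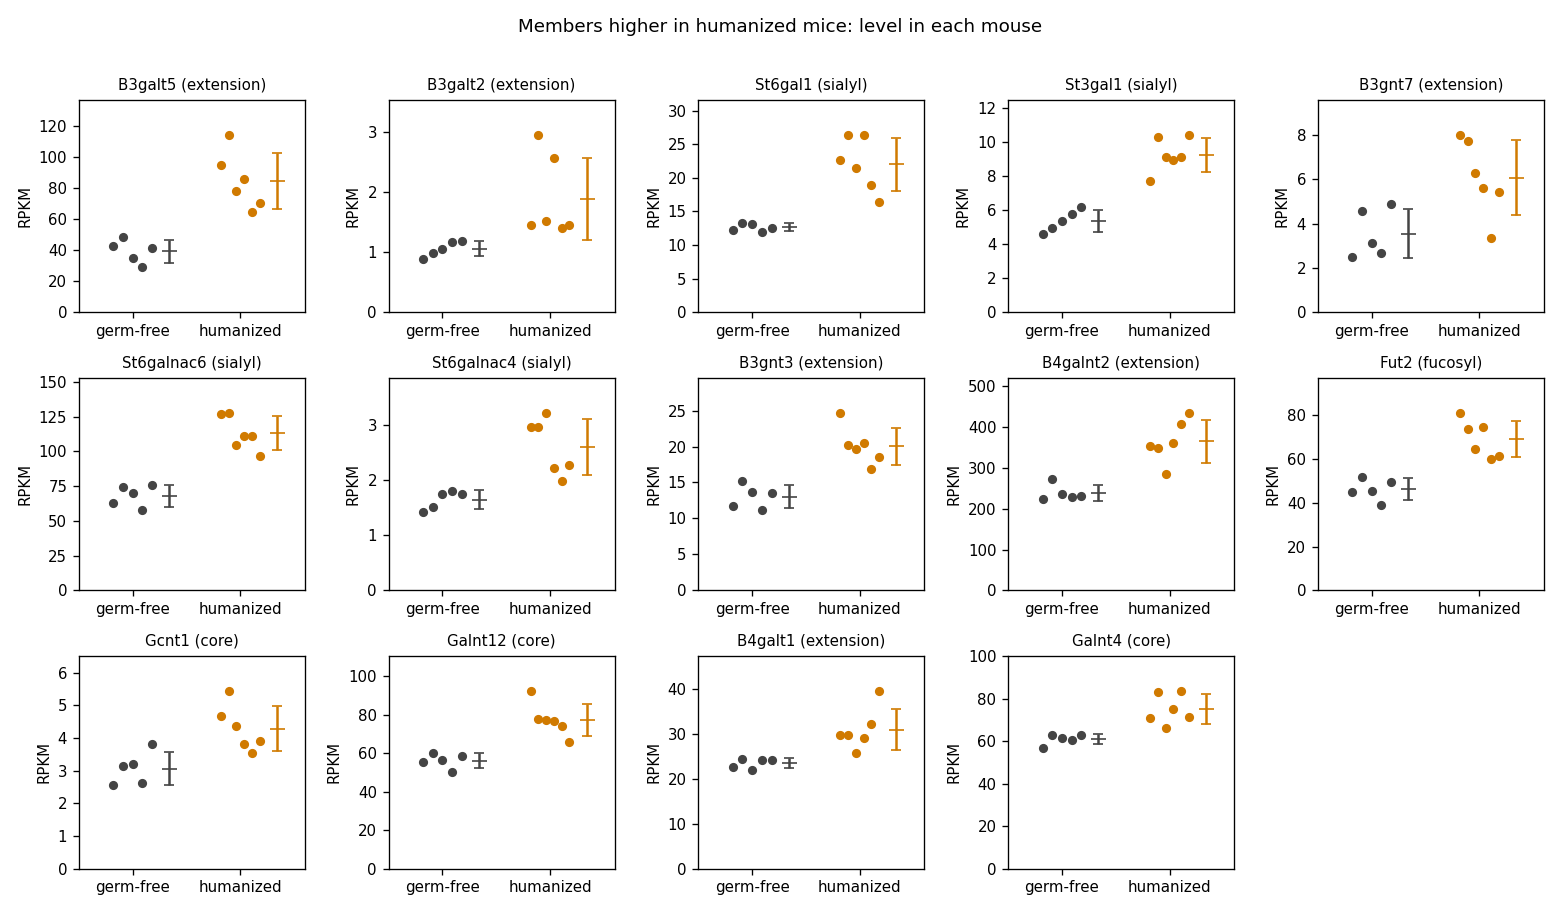
Level (RPKM) of the 14 upregulated members in each of 5 germ-free (grey) and 6 humanized (orange) mice, with the mean and SD of each group at the right of the points. All panels start at 0, and 12 of the 14 genes show no overlap between the groups, the exceptions being B3gnt7 and Gcnt1.

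Those that fell were B3galnt1, the globoside synthase, B3galt1 and B4galt2. B3galnt1 was at 2.17, 1.22, 2.09, 3.03 and 1.55 RPKM in germ-free and 0.187, 0.576 and 1.12 RPKM in humanized mice (LFC -1.71, SE 0.36, FDR 9.61e-05, edgeR). B3galt1 was at 0.193 to 0.331 and 0.0189 to 0.125 RPKM (LFC -1.81, FDR 1.02e-05). B4galt2 was at 0.741 to 1.29 and 0.172 to 0.767 RPKM (LFC -1.04, FDR 0.00653, edgeR). It lost its call with the quasi-likelihood test (FDR 0.0219), without germ-free mouse 3, 4 or 5 or humanized mouse 1, 2 or 6 (FDR 0.0156 to 0.0353) and without humanized mice 5 and 6 together (LFC -0.77, FDR 0.0106), and 28.2% of its exon bases are shared with Ccdc24 on the same strand. By contrast B4galnt1, an abundant ganglioside enzyme, was at 88.5 to 100.1 RPKM in germ-free and 69.3 to 92.9 RPKM in humanized mice (LFC -0.18, FDR 0.149), a value that was called lower with total counts (LFC -0.37, FDR 3.00e-04) and epithelial scaling (LFC -0.43, FDR 9.50e-07), and 20.7% of its exon bases are covered by Slc26a10 on the opposite strand.

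**Figure D4:**
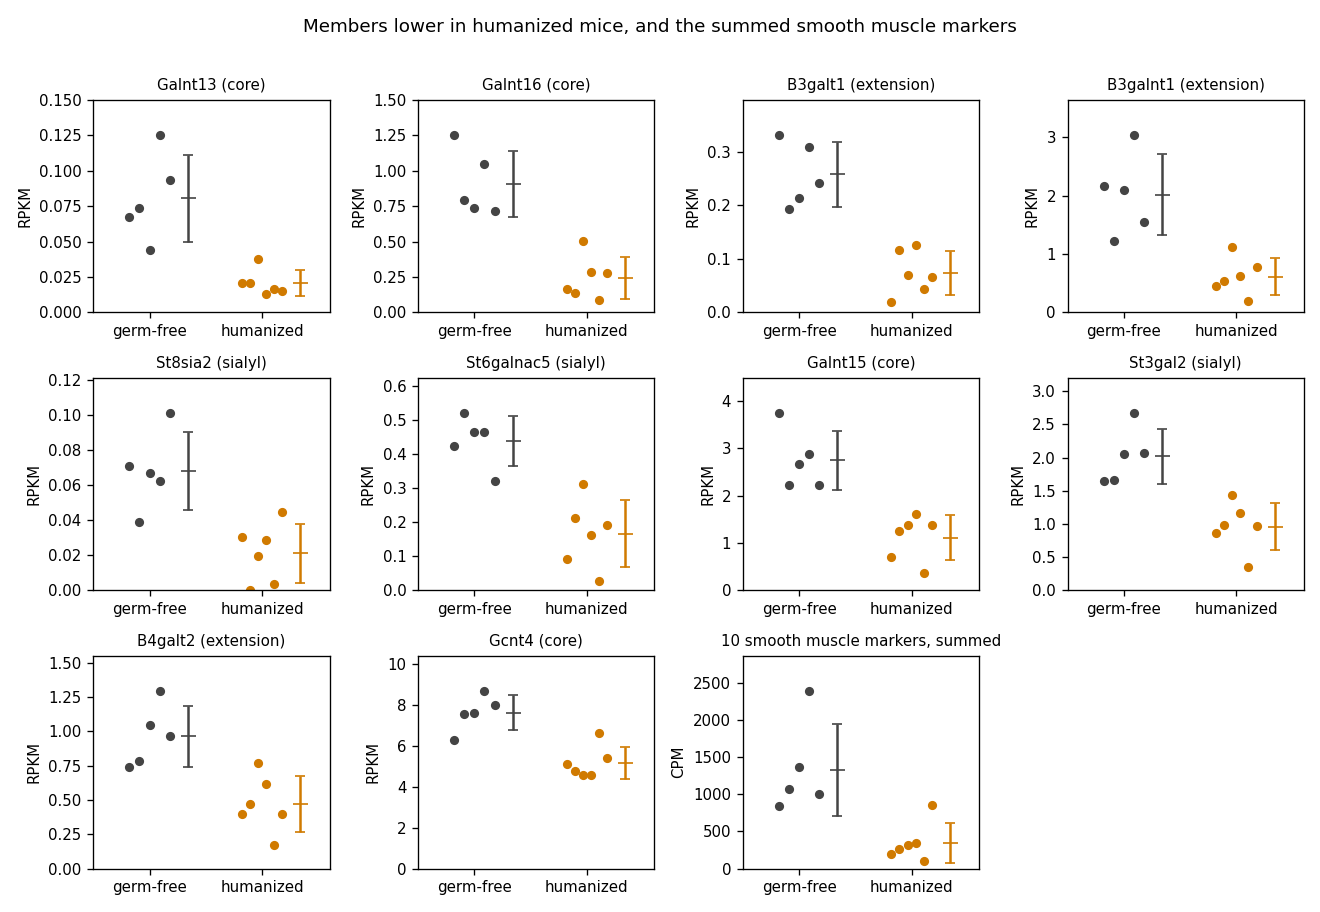
Level (RPKM) of the 10 downregulated members and the summed CPM of 10 smooth muscle markers in each of 5 germ-free (grey) and 6 humanized (orange) mice, with the mean and SD of each group at the right of the points. For 7 of the 10 genes the groups do not overlap, the exceptions being Gcnt4, B4galt2 and St8sia2, and the muscle markers span 834 to 2381 CPM in germ-free and 95.9 to 856 CPM in humanized mice.

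Markers of other cell types also differed between the groups of mice, beside 9.20% of all genes higher and 10.1% lower. With the downregulated members, 10 of 10 smooth muscle markers (median LFC -1.91), 7 of 8 fibroblast markers (-1.44) and 8 of 8 neuron and glia markers (-1.87) were lower in humanized mice, while 0 of 6 endothelial markers were called by edgeR's exact test (median LFC -0.95, 5 lower at an unadjusted p under 0.05, 0 by the quasi-likelihood test and 1 by DESeq2). The fibroblast markers summed to 1450 to 1975 CPM in germ-free and 140.0 to 1072 CPM in humanized mice, the neuron and glia markers to 25.7 to 36.9 and 4.63 to 12.6 CPM, and none of these 3 lists held a gene at 0 in any mouse. Fewer cells of a type and less RNA per cell cannot be told apart in bulk tissue, and the part of these layers in the lower members was not tested. Correlations of the members with the muscle and goblet markers over the 6 humanized mice are not given as results. A test over 150 relations is not possible with 6 mice. Leaving out 2 mice turned the sign of the median r of the upregulated members, but not that of the downregulated ones.

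In humanized mice 5 of 11 goblet markers (median LFC 0.46) and 4 of 10 colonocyte markers (0.43) were higher. So were 3 of 11 epithelial markers (0.21), beside 9.20% of all genes and 15.1% of those at 4 RPKM or more. The goblet markers summed to 8515 to 12193 CPM in germ-free and 12763 to 17087 CPM in humanized mice, without overlap. Plasma cell (6 of 7 higher, median LFC 3.12) and T cell markers (6 of 7, 1.15) were higher as well, while 1 of 6 B cell markers was (median LFC 1.18) and their sums overlapped, at 3.99 to 9.58 CPM in germ-free and 5.58 to 40.8 CPM in humanized mice. The part of these cells in the upregulated members was not tested, apart from the scaling to epithelial markers given above.

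**Figure D5:**
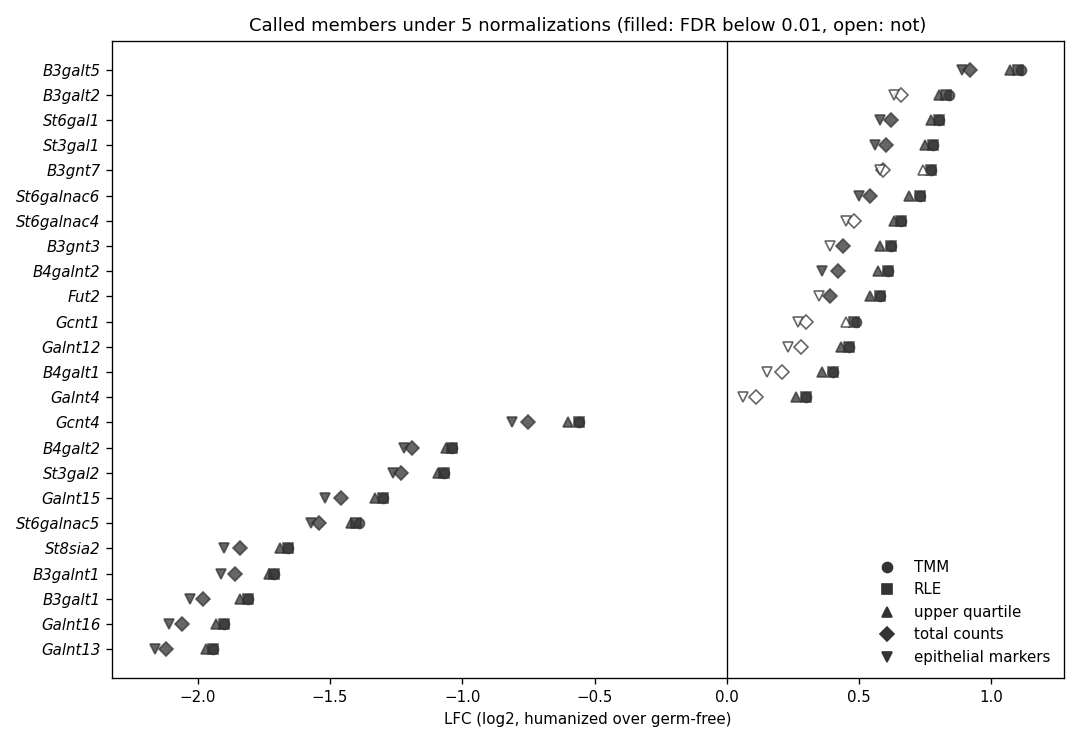
LFC (humanized over germ-free, log2) of the 24 called members under 5 normalizations, filled where the FDR was below 0.01 and open where it was not. The 10 downregulated members are filled under every normalization, and of the 14 upregulated ones B3galt5, St6gal1, St3gal1, St6galnac6 and B4galnt2 are. Upper-quartile, total-count and epithelial scaling lowered the median LFC of all genes, so lower members could hardly lose their fill.

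The summed level of a class, as a description, was 102 ± 7.44 RPKM (SD, n = 5) in germ-free and 127 ± 14.1 RPKM (SD, n = 6) in humanized mice for the fucosyltransferases and 220.4 ± 23.6 and 285 ± 27.3 RPKM for the sialyltransferases. The core class summed to 593 ± 32.8 and 665 ± 43.8 RPKM and the extension class to 539 ± 33.0 and 713 ± 57.6 RPKM. Within the sialyltransferases St6galnac6 went from 30.9% ± 2.68 to 39.9% ± 5.51 of the sum and St3gal4 from 31.4% ± 8.44 to 23.7% ± 9.07. Within chain extension B4galnt2 went from 44.3% ± 1.11 to 51.0% ± 3.49, B3galt5 from 7.28% ± 1.13 to 11.98% ± 2.77 and B4galnt1 from 17.8% ± 0.848 to 11.8% ± 1.10. Gcnt3 made up 19.9% ± 0.388 and 17.97% ± 2.40 of the core sum, so these sums rest on a few abundant genes.

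Over the 75 members the coefficient of variation between mice had a median of 10.4% in germ-free and 17.8% in humanized mice, beside 10.4% and 16.5% for all genes tested. Of the 76 members, 68 had 10 reads in every mouse. Galnt13, St8sia2 and St8sia3 had them in every germ-free and in 1 humanized mouse, so their place among the members depended on the germ-free level, and St8sia3 was not tested since it was below the filter of the fit. Just outside the threshold were Galnt9, with 10 reads in 3 mice, and Fut7, the leukocyte enzyme of selectin ligands, with 10 reads in 2 mice.

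Of 25 genes of donor sugar synthesis and Golgi transport, which supply these enzymes, 5 were higher and 1 was lower (median LFC 0.19), beside 9.20% and 10.1% of all genes, and 15.1% higher among all genes at 4 RPKM or more. Gmds, which commits GDP-mannose to GDP-fucose, was at 53.6 to 72.5 RPKM in germ-free and 90.5 to 118 RPKM in humanized mice, without overlap (LFC 0.70, SE 0.09, FDR 1.38e-10, edgeR). Ugp2, which makes UDP-glucose, was at 70.0 to 78.9 and 81.8 to 113 RPKM (LFC 0.43, FDR 1.00e-04), and Gfpt2, a first enzyme of the hexosamine pathway, was lower, at 0.437 to 1.74 and 0.136 to 0.630 RPKM (LFC -1.65, FDR 2.32e-04, edgeR). Gfpt1, the far more abundant enzyme of the same step, named after its values were seen, was higher, at 152 to 187 and 185 to 230.4 RPKM (LFC 0.32, FDR 0.00227, edgeR). The sialic acid genes, named for their role and not by FDR, were Gne (LFC 0.07, FDR 0.621), Nans (0.25, FDR 0.0802) and Cmas (0.25, FDR 0.0126), and none passed the test.

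Of 12 genes of glycan sulfation tested, 8 sulfotransferases and 4 that make or carry the sulfate donor, 1 was higher and 2 were lower (median LFC 0.08), beside 9.20% and 10.1% of all genes. None of the sulfotransferases was higher by edgeR's exact test. Papss2, which makes the sulfate donor, was at 152 to 188 RPKM in germ-free and 185 to 299.7 RPKM in humanized mice (LFC 0.53, FDR 2.78e-04, edgeR). Chst1 was lower, at 2.78 to 3.34 RPKM in germ-free and 0.408 to 2.35 RPKM in humanized mice (LFC -1.07, FDR 0.00597), and so was Chst2, at 0.838 to 1.05 and 0.155 to 0.652 RPKM (LFC -0.99, FDR 0.00770), both sulfating N-acetylglucosamine or galactose ends.

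Of 18 other terminal glycosyltransferases tested 4 were higher and 1 was lower (median LFC 0.07), beside 9.20% and 10.1% of all genes. Mgat4c, of a family that branches N-glycans, was at 76.7 to 86.6 RPKM in germ-free and 97.2 to 155 RPKM in humanized mice (LFC 0.59, FDR 2.28e-05, edgeR), and Mgat4a at 13.3 to 14.5 and 15.8 to 21.5 RPKM (LFC 0.36, FDR 0.00122). Lfng, which extends O-fucose on Notch, was lower, at 8.85 to 10.3 and 5.61 to 8.21 RPKM (LFC -0.47, FDR 0.00113, edgeR). Of 13 glycosidases and sialic acid editing genes tested 2 were higher and 0 lower by edgeR (median LFC 0.02, 2 lower at an unadjusted p under 0.05, 0 by the quasi-likelihood test and 0 by DESeq2), beside the same shares of all genes. Those higher were the fucosidases Fuca2, at 15.9 to 18.03 and 19.8 to 28.7 RPKM (LFC 0.52, FDR 3.49e-06), and Fuca1, at 64.0 to 73.2 and 73.6 to 105 RPKM (LFC 0.36, FDR 8.34e-04).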

How the data were processed

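RNA was extracted from the colon of 5 germ-free and 6 humanized mice and sequenced with a kit that does not mark strand. Per the labels and the study's methods, the authors aligned paired reads to mm10 with TopHat2 2.1.0 and Bowtie2 2.2.3 and deposited raw counts per gene from featureCounts (Subread 1.4.6-p5), not normalized. The deposited counts were filtered with filterByExpr (minimum count 10, minimum total 15), TMM-normalized and tested with edgeR 4.0.16 (R 4.3.3) by its exact test, with Benjamini-Hochberg adjustment over 19863 genes and a threshold of 0.01. Standard errors came from the quasi-likelihood fit and RPKM from the deposited gene lengths. Total counts ranged from 39125290 to 64148538 per mouse, and values at few reads are imprecise. The quasi-likelihood test, DESeq2 1.42.0, 4 other normalizations, 3 other filters, 2 other thresholds, a replicate block and each mouse left out were alternatives, and the script was tested on simulated data. Members named were all called, the 3 most abundant per class, those next to the read threshold, those without overlap but not called, and 10 well known colon enzymes. Of the pathway lists the 3 with the lowest FDR were named, and further genes of them only where stated. Members and lists were chosen with earlier results of these data known. The same replicate numbers did not pair the mice. No batch is named in the labels, and the isolators of the groups cannot be told apart from the groups. Exon overlaps were read from GENCODE M21.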

Additional observations from a re-analysis of the deposited data

Results flagged for a closer look

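In each group of mice the lowest and the highest value of every member was compared with its nearest neighbour by Dixon's ratio. Of 152 such groups 8 held a mouse far from the rest, and chance flags about 1 in 20. Humanized mouse 6 was the highest of its group for St3gal5 (17.4 RPKM, next 3.64 RPKM), St3gal4 (130 RPKM, next 75.8 RPKM) and St8sia3 (0.0299 RPKM, next 0.00771 RPKM). Germ-free mouse 2 was the highest for B4galnt2 (273 RPKM, next 237 RPKM), B4galt4 (20.2 RPKM, next 17.3 RPKM) and C1galt1c1 (58.2 RPKM, next 50.6 RPKM). Germ-free mouse 1 was the highest for St6galnac1 (30.2 RPKM, next 13.2 RPKM), and humanized mouse 3 for Galnt13 (0.0378 RPKM, next 0.0209 RPKM). No technical or biological reading of these mice was tested.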

How the results depend on the processing

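The main counts were 14 members higher and 10 lower, beside 1827 and 1999 of all genes. Both moved with the scaling: total counts gave 7 and 18 (core higher 0, extension higher 3, fucosyl lower 2, extension lower 8), and epithelial markers gave 5 and 16 (fucosyl higher 0, core higher 0, extension higher 2, fucosyl lower 1, extension lower 7). All genes gave 773 and 3609 with total counts and 582 and 3401 with epithelial markers. The quasi-likelihood test gave 11 and 6 members (sialyl lower 0), beside 1401 and 1298 of all genes. DESeq2 gave 16 and 11 (fucosyl lower 1), beside 2185 and 2182. A filter of 10 counts in every mouse gave 14 and 7 (sialyl lower 1), beside 1540 and 1716 of the 17065 genes it kept. At an FDR below 0.05 the fucosyl members higher were 2, the core members higher 7 and the fucosyl members lower 2. At an FDR below 0.01 with LFC past 1, 1 member was higher (extension 1, fucosyl 0, sialyl 0, core 0) and 9 were lower. Leaving out humanized mice 5 and 6 together, chosen after seeing the data, gave 18 and 14 (fucosyl higher 2, core higher 5). All genes gave 1795 and 2200 there. Leaving out 1 mouse gave 10 to 16 higher and 6 to 12 lower members, beside 1336 to 2088 and 1486 to 2323 genes. Core members higher then ranged from 1 to 5 and sialyl members lower from 0 to 3.

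Replicate numbers did not pair the mice: the correlations of same-numbered mice were -0.05, -0.13, 0.09, 0.09 and -0.07, and only number 3 correlated best with its own. With the replicate block the quasi-likelihood fit gave 7 members higher and 1 lower (core higher 1, extension higher 2, sialyl lower 0, core lower 0, extension lower 1), in which humanized mouse 6 has no partner and does not bear on the LFC, and 506 of all genes were called in each direction.

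Some LFCs that did not pass the test changed sign. C1galt1 was at -0.03 with total counts and -0.07 with epithelial markers. Gcnt3 was at -0.02 (upper quartile), -0.17 (total counts), -0.23 (epithelial markers), -0.01 (10 counts in every mouse), -0.01 (replicate block), -0.08 (without humanized mice 5 and 6) and -0.04 to 0.06 without 1 mouse. St3gal4 was at -0.32 to 0.16 without 1 mouse. St3gal5 was at -0.51 to 0.62 without 1 mouse, -0.54 with the replicate block and -0.57 without humanized mice 5 and 6. The cause of these shifts was not tested. Galnt13 and St8sia2 had no more than 61 and 38 reads in any mouse, and values at so few reads are imprecise.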
